A study of Mus musculus with 6 samples.

Results

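The Hox genes were described here as they lay in 4 clusters of the mouse genome, in chromatin immunoprecipitation sequencing (ChIP-seq) of the transcription factor Bapx1. Members were taken from a list of 38 named genes, of 22222 protein-coding genes in the annotation of the mm9 (NCBIM37) assembly. Each cluster was read with 100 kb either side of it. HoxA held 10 of the genes at chr6:52112350-52210874 on the minus strand, HoxB held 10 at chr11:96055630-96229570, HoxC held 9 at chr15:102751534-102867274 and HoxD held 9 at chr2:74506367-74603200, the last 3 on the plus strand. Membership followed the gene name, and no gene was taken in or left out by its tags or peaks.

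Bapx1 libraries were made in 2 settings, each with a control, and 1 library stood for each condition. In embryos of the CD1 strain at E12.5, Bapx1 carried an S-peptide tag at its own gene, and its vertebral column chromatin was precipitated with an S-peptide antibody. The control was vertebral column of wildtype embryos taken through the same antibody. Vertebral columns of many embryos went into each of these ChIPs by the study's methods, so the spread between embryos is unknown. In NIH3T3 cells, an established mouse fibroblast line, V5-tagged Bapx1 was overexpressed and precipitated with a V5 antibody. Its V5 control was described by the labels both as an empty pcDNA6 vector transfection and as wild type 3T3. A further pair, Sox9 and IgG in wildtype embryos at E12.5, is labelled vertebral column, with the limb named beside it. The control titles say input, although their descriptions name antibodies. Every library had 14 rounds of PCR. Distinct tags, those counted once per position and strand on the autosomes, X and Y, came to 24853758 for Bapx1 and 20702403 for wildtype S-peptide in the embryo, and to 8901095 for Bapx1 and 12453788 for V5 in NIH3T3. These tags measure precipitated DNA and not RNA, so the labelled tissue could not be checked against markers of expression. With 1 library per condition no difference has a replicate check. All intervals below are exact 95% intervals, binomial or Poisson for counts, shares and ratios. Those of the quotient of 2 ratios are conditional on the totals of its table of tags. All cover counting error only, since tags from PCR are not independent molecules.

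Hox genes encode homeodomain transcription factors that give the segments of the body axis their identity, and in the vertebral column they set which type of vertebra forms at each level. Within a cluster the genes stand in the order of their paralog groups, with low-numbered groups at the end that is expressed first and furthest towards the head, and high-numbered groups at the end that marks the trunk, tail and distal limb. Bapx1, also named Nkx3-2, is itself a homeodomain protein and is required for the axial skeleton.

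In the embryo, no peak of the authors' Bapx1 list lay inside any Hox cluster, and the scaled tags at the starts of the Hox genes differed little between the Bapx1 library and its control, with a median ratio of 1.04. Inside the clusters 0 peaks were found in 0.485 Mb, with an upper limit of 7.61 peaks per Mb, while the whole list had 1.06 peaks per Mb, so that 0.514 peaks would be counted at the rate of the list. At this length a count of 0 cannot be told from that rate. None of the 38 Hox genes had a peak summit within 5 kb of a start (upper limit 9.25%), beside 3.06% of all protein-coding genes. The count was also 0 within 1 kb (2.08% of all genes), within 10 kb (4.23%) and within 5 kb for peaks with a p of at most 1e-10 (0.621%). Within 100 kb it was 6 genes, 3 of HoxA and 3 of HoxB, or 15.8% (6.02% to 31.3%), beside 22.5%. The 3 of HoxA shared a single flank peak, as did the 3 of HoxB. The intervals of shares of Hox genes, here and below, treat neighbouring genes as independent and are therefore likely too narrow.

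Tags were then counted within 1 kb of the start of the most 5′ coding transcript of each gene and expressed as a ratio of ChIP to control, each scaled to its library total. In the embryo all 38 genes held at least 10 tags in the pair, and their ratios ranged from 0.476 to 2.07 with a median of 1.04, beside 1.02 over all genes. A ratio above 1 was found at 21 of the 38, or 55.3%, beside 52.4% of all genes. At least 2-fold more tags were counted at 1 Hox gene, beside 2.15% of all genes tested, and at most 0.5-fold at 1, beside 1.82%. The former was Hoxb2, which patterns the hindbrain, with 67 Bapx1 tags and 27 control tags and a ratio of 2.07 (interval 1.30 to 3.36). The latter was Hoxc9, a gene of thoracic identity, with 32 and 56 tags and a ratio of 0.476 (0.298 to 0.748). At the second annotated start of Hoxc9 the embryo ratio was 0.759 (0.485 to 1.185), not past the limit. Within 2500 bp of the most 5′ start the ratios were 1.588 at Hoxb2 and 0.6878 at Hoxc9, and neither passed its limit. Within 1 kb each stood alone beyond its limit, and the nearest peak of either list was 80.5 kb from Hoxb2 and 159 kb from Hoxc9.

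The next highest embryo ratios were 1.87 at Hoxc4 (45 and 20 tags), 1.71 at Hoxb1 (39 and 19), 1.63 at Hoxc12 (41 and 21) and 1.49 at Hoxb4 (50 and 28). Of these, the interval of Hoxc4 alone lay above 1 (1.08 to 3.35). The next lowest were 0.602 at Hoxa7 (39 and 54 tags), 0.682 at Hoxc8 (36 and 44), 0.709 at Hoxa4 (40 and 47) and 0.729 at Hoxb9 (28 and 32). The interval of Hoxa7 lay below 1 (0.388 to 0.925). By cluster, 8 of 10 HoxB genes had a ratio above 1, with a median of 1.13, whereas 2 of 10 HoxA genes did, with a median of 0.854. HoxC had 6 of 9 above 1 and HoxD 5 of 9, with medians of 1.13 and 1.01.

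The embryo list had 3 peaks in the flanks, 1 each at HoxA, HoxB and HoxC, and 0 at HoxD. Clusters and flanks together thus had 2.33 peaks per Mb (0.481 to 6.82), beside 1.06 for the list. At the rate of the list 1.36 would be counted, so 3 cannot be told from it. At HoxA the peak chr6:52281104-52281318 lay between genes, 70371 bp upstream of the start of Hoxa13 and 17753 bp from the start of Evx1, an even-skipped type homeobox gene that borders the cluster. Its recounted tags were 13 in Bapx1, 3 in wildtype S-peptide, 2 in NIH3T3 Bapx1 and 2 in V5. At HoxB the peak chr11:96293321-96293566 lay 66430 bp downstream of Hoxb1, with 15, 2, 1 and 4 tags in the same order. Its nearest coding start was that of Skap1, 32411 bp away. At HoxC the peak chr15:102966145-102966421 lay in an intron of the non-coding gene D930007P13Rik, with 20, 1, 0 and 3 tags and an embryo ratio of 16.7 (2.67 to 690.5). Its nearest coding start was that of Smug1, 22129 bp away, and Hoxc4 was 101428 bp away. The interval of the HoxA peak reached below 1 (0.992 to 19.8). The authors' false discovery rate was 53.6% to 70.8% for these 3 peaks, and none kept a p of at most 1e-10. In the whole embryo list no peak had a false discovery rate of at most 5%, so high rates are not particular to these 3.

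In NIH3T3 the picture along HoxA was different: the Bapx1 library held more tags than V5 over the stretch from just outside the Hoxa2 end to Hoxa7, and fewer over the windows with the starts of Hoxa9, Hoxa10 and Hoxa11. In windows of 10 kb counted from the Hoxa2 end, the 7 windows from 10 kb before the cluster to 60 kb inside it had ratios of 1.55 to 2.33. The 3 windows that followed, from 60 to 90 kb, had ratios of 0.556 to 0.652, and the last, from 90 to 100 kb with the start of Hoxa13, stood at 0.858 (0.581 to 1.255). The change from 2.05 to 0.630 fell between neighbouring windows, of which the former held the starts of Hoxa3 and Hoxa7 and the latter that of Hoxa9. The embryo ratios in the same windows were 0.963 to 1.08 and then 0.870 to 0.926. Inside the clusters 3 of 50 windows reached 2-fold in NIH3T3, beside 1.84% of all windows in the genome, and all 3 were in HoxA. In the embryo 0 of 50 did, beside 0.43%. No window inside a cluster was at or below 0.5-fold in either pair, beside 3.02% of all windows in NIH3T3 and 0.206% in the embryo.

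**Figure D1:**
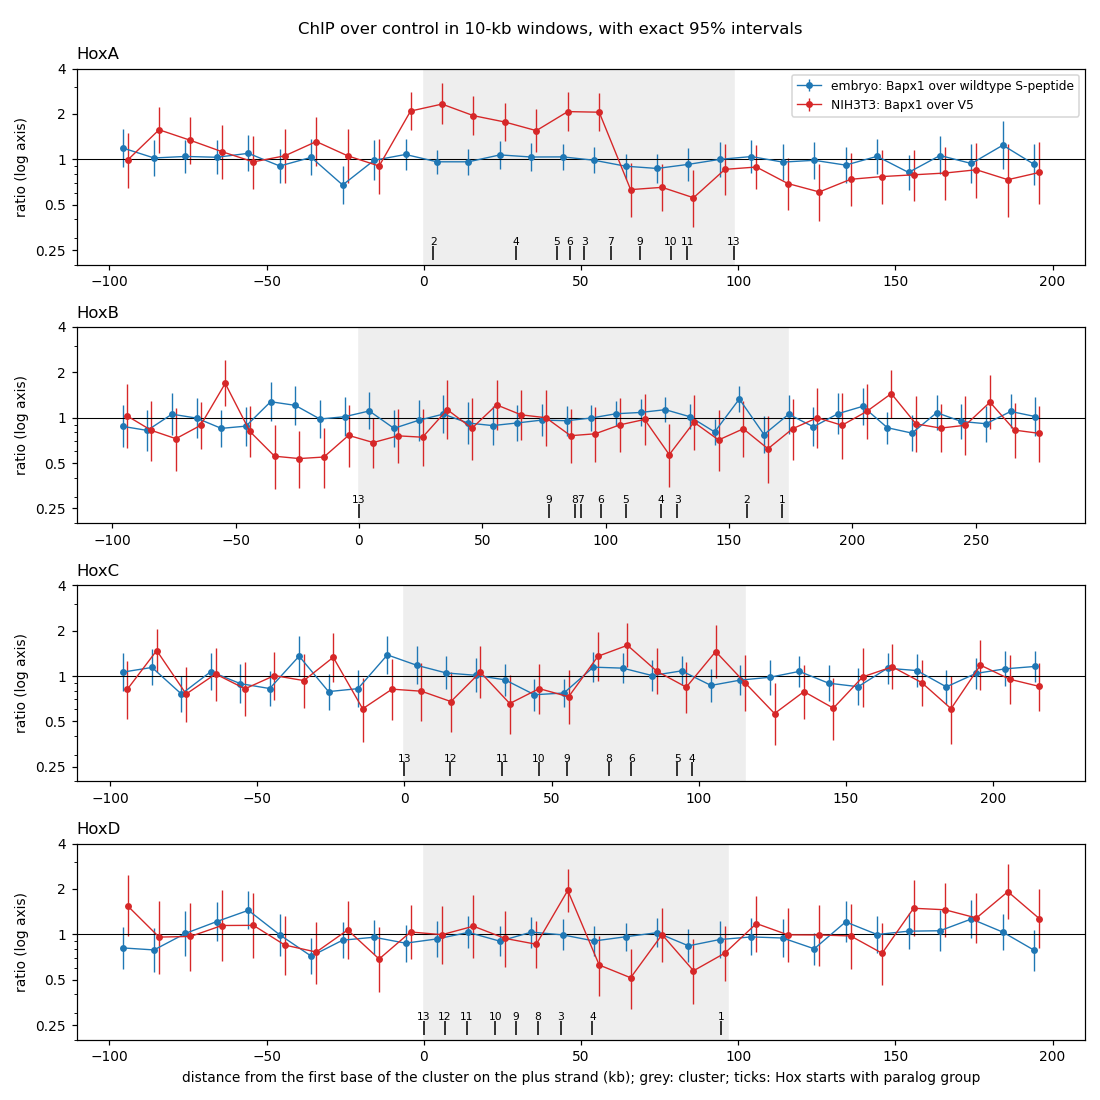
Ratio of scaled ChIP to control tags in 10-kb windows along the 4 clusters and their flanks, on a log axis, for the embryo (blue) and NIH3T3 (red), with exact 95% intervals, grey over the cluster and ticks at the Hox starts. The 7 NIH3T3 windows from 10 kb before HoxA to 60 kb inside it sit at 1.55 to 2.33, and the embryo windows inside HoxA stay between 0.870 and 1.07.

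Each cluster was then divided midway between the neighbouring starts of its groups up to 8 and its groups from 9, a boundary chosen after the HoxA windows had been seen. The HoxA stretch of groups 1 to 8 (64.1 kb) held 673 Bapx1 tags and 504 V5 tags in NIH3T3, a ratio of 1.87 (1.66 to 2.10). The HoxA stretch of groups 9 to 13 (34.4 kb) held 138 and 289 tags, a ratio of 0.668 (0.541 to 0.821). Their GC contents were 49.8% and 50.3%. In the genome 1.28% of all 60-kb windows reached a ratio of 1.5, and 1.31% of those with a GC content of 48% to 52% did. With the tags inside peaks left out, the ratio of the first stretch was 1.67 (1.48 to 1.89), with 580 and 486 tags. It was thus above 1 also between the peaks.

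In HoxC groups 1 to 8 held 314 and 347 tags, a ratio of 1.27 (1.08 to 1.48). Its groups 9 to 13 held 234 and 419 tags, a ratio of 0.781 (0.663 to 0.919), a smaller difference than in HoxA. The excess in HoxC was not a continuous run of windows as in HoxA. Of 12 HoxC windows 1 had an interval above 1, that with the start of Hoxc6, at 1.60 (1.15 to 2.24). The window with the starts of Hoxc4 and Hoxc5 stood at 0.843 (0.567 to 1.24). In HoxB and HoxD the intervals of the stretches overlapped. In HoxB the ratios were 0.794 (0.691 to 0.911) for groups 1 to 8 and 0.903 (0.786 to 1.04) for groups 9 to 13, and in HoxD they were 0.929 (0.798 to 1.08) and 0.909 (0.714 to 1.15). In the embryo groups 1 to 8 were also above groups 9 to 13 in each cluster, at 1.004 and 0.912 in HoxA, 1.025 and 0.956 in HoxB, 1.049 and 0.913 in HoxC and 0.972 and 0.925 in HoxD, but each of these 8 intervals included 1. Within HoxD a single 10-kb window, with the start of Hoxd3, stood at 1.96 (1.42 to 2.71), and the window with that of Hoxd4 beside it stood at 0.627 (0.393 to 0.977).

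**Figure D2:**
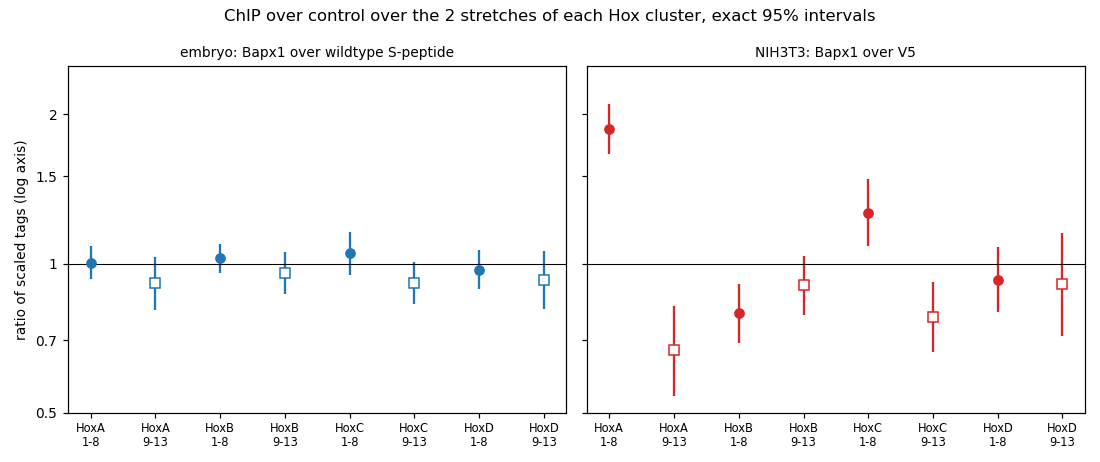
Ratio of scaled ChIP to control tags over paralog groups 1 to 8 (filled) and 9 to 13 (open) of each cluster, on a log axis with exact 95% intervals, for the embryo (left) and NIH3T3 (right). HoxA separates into 1.87 and 0.668 in NIH3T3, HoxC into 1.27 and 0.781, and the embryo stretches lie between 0.912 and 1.05.

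In distinct tags-per-million per kb, the HoxA stretch of groups 1 to 8 stood at 1.18 in NIH3T3 Bapx1 and 0.631 in V5, and at 0.89 and 0.887 in the embryo Bapx1 and wildtype S-peptide libraries. The flanks of HoxA, both sides summed, stood at 0.543, 0.542, 0.478 and 0.483 in the same order. In NIH3T3 they differed from each other: the 10 windows on the Hoxa2 side held 571 and 629 tags, a ratio of 1.27 (1.13 to 1.43), and the 10 beyond Hoxa13 held 389 and 706, a ratio of 0.771 (0.679 to 0.874). Ratios below 1 thus ran on past the Hoxa13 end of the cluster. In the embryo these flanks stood at 1.002 and 0.979. The embryo libraries were therefore also denser over HoxA than over its flanks, but the control as much as the ChIP. Over whole clusters the inside was denser than the flanks by 1.44-fold for embryo Bapx1 (1.399 to 1.486), 1.45-fold for wildtype S-peptide (1.402 to 1.496), 1.19-fold for NIH3T3 Bapx1 (1.13 to 1.25) and 1.11-fold for V5 (1.06 to 1.16). For HoxA the same values were 1.68, 1.70, 1.70 and 1.19, an average over stretches that differed. In groups 1 to 8 they were 1.86, 1.84, 2.17 and 1.17, with V5 the lowest, and in groups 9 to 13 they were 1.33, 1.45, 0.831 and 1.25, with NIH3T3 Bapx1 the lowest. In 1-kb bins, 26 of 84 HoxA bins tested reached 2-fold in NIH3T3, or 31%, beside 16.9% of all bins, against 7 of 93 in HoxB, 13 of 76 in HoxC and 9 of 54 in HoxD. At most 0.5-fold were 7 HoxA bins, beside 16.9% of all bins. In the embryo 25 of 481 bins of the 4 clusters reached 2-fold, beside 8.09%, and 22 were at most 0.5-fold, beside 7.8%.

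**Figure D3:**
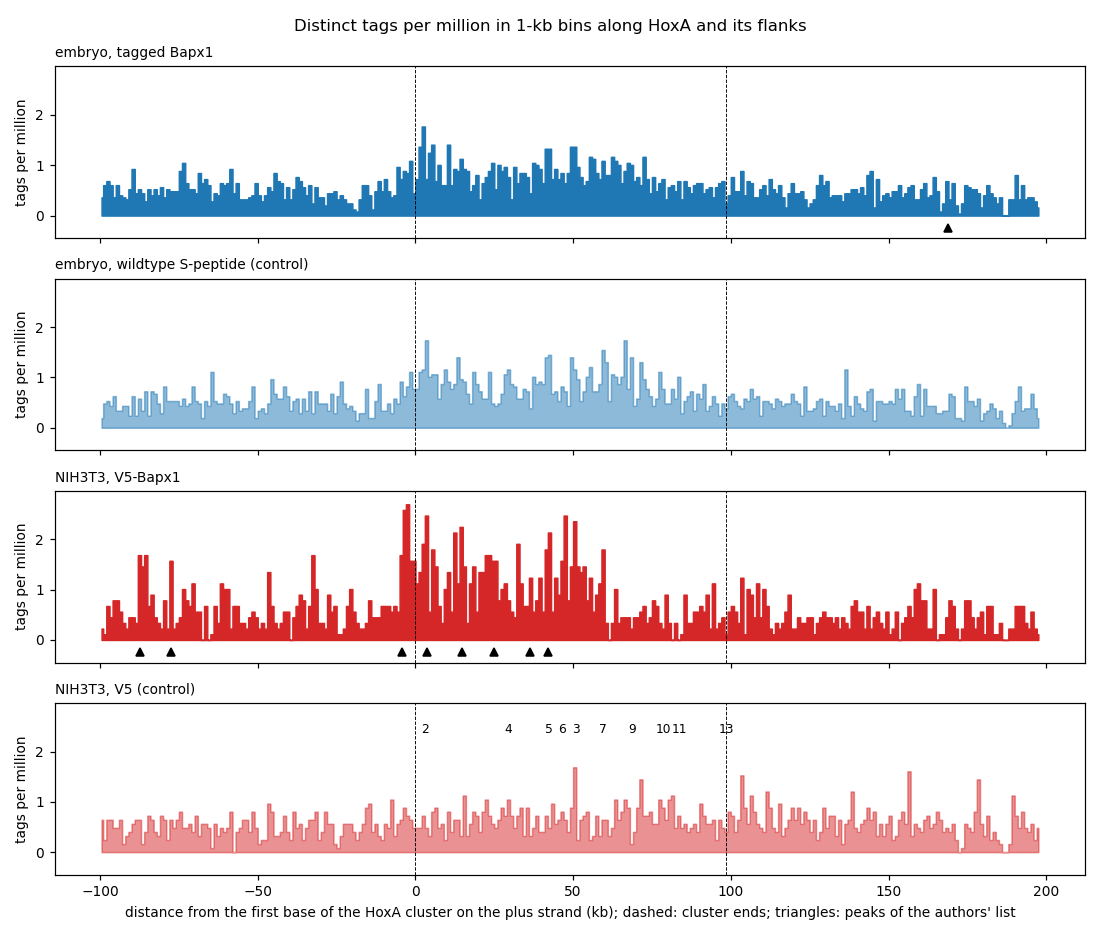
Distinct tags-per-million in 1-kb bins along HoxA and its flanks in the 4 libraries on mm9, with triangles at the peaks of the authors' lists and paralog numbers at the starts. Tags of NIH3T3 Bapx1 drop after Hoxa7, whereas V5 stays level across the cluster, at 0.631 tags-per-million per kb before that boundary and 0.675 after it.

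The NIH3T3 list had 10 peaks in the clusters and flanks, 8 of them at HoxA, 2 at HoxD, and 0 at HoxB and HoxC. Together this was 7.78 peaks per Mb (3.73 to 14.3), where 11.2 peaks would be counted at the rate of the list. The total thus cannot be told from that rate. At HoxD 2.59 would be counted, and inside the clusters 4.24, where 5 were found. The rate inside HoxA was 50.7 peaks per Mb (16.5 to 118), from 5 peaks, whereas the whole list had 8.74 per Mb. HoxB with its flanks held 0 peaks (upper limit 9.86 per Mb), where 3.27 would be counted at the rate of the list, and HoxC held 0 (upper limit 11.7 per Mb), where 2.76 would. The whole of chromosome 11 had 11.6 peaks per Mb, above the limit of HoxB, and chromosome 15 had 10.9, below the limit of HoxC. The nearest peaks to a start in HoxB and HoxC were 110 kb and 105 kb away. A summit lay within 5 kb of a start of 5 Hox genes, or 13.2% (4.41% to 28.1%), beside 19.2% of all genes, and these were Hoxa2, Hoxa3, Hoxa4, Hoxa5 and Hoxa6, 5 of the 10 HoxA members. The interval of the share over all Hox genes includes the share of all genes. Within 1 kb there were 2 Hox genes, Hoxa2 and Hoxa5, beside 8.8% of all genes, within 10 kb 6, with Hoxd1 added, beside 26.9%, and within 100 kb 19, all those of HoxA and HoxD, beside 78.7%. With a p of at most 1e-10, a peak lay within 5 kb of 2, Hoxa2 and Hoxa3, beside 3.9%.

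All 5 peaks inside HoxA had summits between the starts of Hoxa2 and Hoxa5, each annotated as within an intron of Hoxa3. The peak 630 bp upstream of Hoxa2, a gene of the hindbrain and pharyngeal arches, held 21 NIH3T3 Bapx1 tags and 4 V5 tags, a ratio of 7.35 (2.48 to 29.4), and 10 and 16 tags in the embryo. The peak chr6:52126782-52127595 covered the start of the coding gene 5730596B20Rik, 455 bp from its summit, and lay 4394 bp upstream of an internal Hoxa3 start. It held 24 and 6 tags in NIH3T3 and 24 and 14 in the embryo. The peak chr6:52137131-52137700, 4367 bp downstream of the start of Hoxa4, held 21 and 2 tags, a ratio of 14.7 (3.59 to 129.2), and 14 and 6 in the embryo. At chr6:52148431-52148798, 6049 bp downstream of the start of Hoxa5, the tags were 10 and 1 in NIH3T3 and 7 and 3 in the embryo. The last, chr6:52153972-52154530, had its summit in a coding exon of Hoxa5, a gene of cervical and upper thoracic identity, 287 bp from its start, with 17 and 5 tags in NIH3T3 and 25 and 17 in the embryo. The excess over V5 is what put these peaks on the list and is given as a description, whereas the embryo tags were not used to call them and gave ratios of 0.521 to 1.94, each with an interval that included 1.

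The sequences around the summits are printed because they show which of these peaks held the letters TGAGTG or TAAGTG, the Bapx1 binding motif as the study writes it. Each is 101 bases of mm9, plus strand, and capitals mark those letters or their reverse complements CACTCA and CACTTA.
Peak upstream of Hoxa2, chr6:52115992-52116092: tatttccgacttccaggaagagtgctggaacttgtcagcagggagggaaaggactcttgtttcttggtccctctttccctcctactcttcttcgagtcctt
Peak in the Hoxa3 intron, chr6:52126992-52127092: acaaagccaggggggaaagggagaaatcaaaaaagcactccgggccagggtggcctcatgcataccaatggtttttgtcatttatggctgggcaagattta
Peak downstream of Hoxa4, chr6:52137335-52137435: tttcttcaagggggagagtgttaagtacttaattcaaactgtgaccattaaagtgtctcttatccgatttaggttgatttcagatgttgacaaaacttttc
Peak downstream of Hoxa5, chr6:52148487-52148587: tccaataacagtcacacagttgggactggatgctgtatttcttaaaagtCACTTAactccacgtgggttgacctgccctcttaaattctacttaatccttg
Peak in the Hoxa5 exon, chr6:52154249-52154349: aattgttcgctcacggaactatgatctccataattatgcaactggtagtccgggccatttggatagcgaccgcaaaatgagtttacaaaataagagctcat
Peak downstream of Hoxd1, chr2:74610168-74610268: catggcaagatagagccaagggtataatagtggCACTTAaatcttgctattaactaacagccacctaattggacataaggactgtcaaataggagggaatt
Embryo peak beside Evx1, chr6:52281195-52281295: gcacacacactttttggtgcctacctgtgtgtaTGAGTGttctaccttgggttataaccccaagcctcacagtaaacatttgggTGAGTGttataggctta
Of the 5 peaks inside HoxA, 1 held the letters within 50 bp of its summit. Over all 10 NIH3T3 peaks the count was 5, or 50% (18.7% to 81.3%), beside 64.4% of the whole list and 10.7% of windows placed 500 bp from the summits of that list. Of the 3 embryo peaks 1 held them, with 2 matches, beside 31.3% of its list. Over each whole cluster the letters occurred at 0.69 per kb in HoxA, 0.891 in HoxB, 0.89 in HoxC and 0.96 in HoxD, below the 1.22 to 1.24 per kb of their chromosomes. A match is a description of letters and not of binding.

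Outside the clusters, the NIH3T3 peaks chr6:52024947-52025278 and chr6:52034599-52034993 lay 90266 bp and 80590 bp downstream of the start of Hoxa2, with 13 and 3 tags and 13 and 5 tags. The nearest coding start to both was that of Skap2, 62598 bp and 72274 bp away. Another peak lay 7184 bp downstream of the start of Hoxa2, with 14 NIH3T3 Bapx1 tags and 3 V5 tags and a ratio of 6.53 (1.82 to 35.4). It lay within a gene that is not among the members and held a motif match at its summit. At HoxD, chr2:74414731-74415103 lay in an intron of Lnp, 91478 bp upstream of Hoxd13, with 10 and 2 tags, and chr2:74610040-74610365 lay 9181 bp downstream of the start of Hoxd1, with 10 and 3 tags. The authors' false discovery rate was 0.14% to 4.54% for the 10 peaks. No embryo peak overlapped an NIH3T3 peak in the Hox clusters or flanks. Over the whole lists 180 embryo peaks did, 6.39% of the embryo list and 0.776% of the NIH3T3 list. With 3 embryo peaks in the clusters and flanks, a count of 0 cannot be told from that share.

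**Figure D4:**
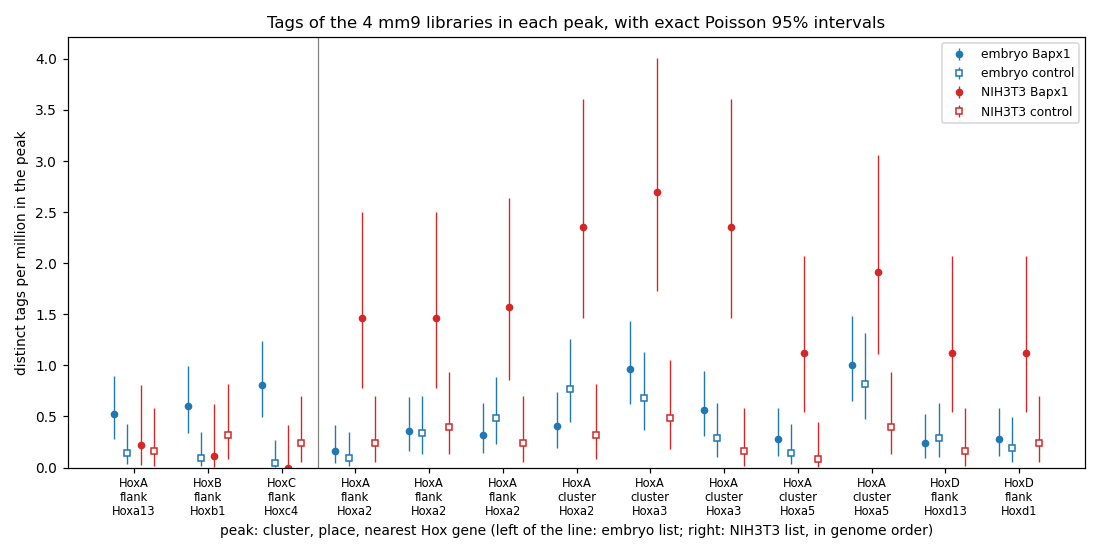
Distinct tags-per-million of the 4 libraries in each of the 3 embryo peaks (left of the line) and the 10 NIH3T3 peaks, with exact Poisson 95% intervals, filled for ChIP and open for control. At the 10 NIH3T3 peaks the red filled points lie at 1.12 to 2.7 tags-per-million, an excess over the red open points by which the peaks were called, and the embryo points lie at 0.0966 to 1.01.

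At the starts of the Hox genes, the NIH3T3 ratios ranged from 0.0999 to 3.90, a wider range than in the embryo. All genes spread more widely in NIH3T3 as well, and the Hox starts held 1 to 39 ChIP tags there. The medians were 1.48 in HoxA, 0.933 in HoxB, 0.763 in HoxC and 0.666 in HoxD, and a difference between clusters was not tested. Of the 38 genes 37 held at least 10 tags in the pair, and Hoxb5, with 3 and 6 tags, did not. The median was 0.875, beside 1.29 over all genes, and 12 of 37 genes had a ratio above 1, or 32.4%, beside 63% of all genes. A ratio of at least 2 was found at 6 genes, beside 24.6% of all genes tested, and a ratio of at most 0.5 at 7, beside 10.8%. As shares of the 37 these are 16.2% (6.19% to 32%) and 18.9% (7.96% to 35.2%), whose intervals include the shares of all genes. When each ratio was divided by the median of all starts in its stratum of GC content, of 10 strata, these counts were 2, beside 12.4% of all genes, and 14, beside 17.8%. Within 2500 bp of the start they were 3, beside 15.7%, and 1, beside 4.85%. Within 500 bp of the start, where 21 Hox genes held enough tags, their median was 1.799, beside 1.399 over all genes, while the median of the same 21 genes within 1 kb was 0.969. Genes with few tags drop out of the narrower count, so it covers a selected set.

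Among the low-numbered groups, Hoxa2 held 39 Bapx1 tags and 14 V5 tags in NIH3T3, a ratio of 3.90 (2.07 to 7.77), against 63 and 60 tags in the embryo, a ratio of 0.875 (0.604 to 1.27). Its window contained the called peak upstream of Hoxa2, with 21 and 4 of these NIH3T3 tags, so start and peak are not separate results. Hoxd3 held 21 and 13 tags (ratio 2.26, 1.08 to 4.91) at its most 5′ start, and 46 and 38 in the embryo (1.01). At the next annotated start of Hoxd3 the NIH3T3 tags were 1 and 20, a ratio of 0.0700 (0.00169 to 0.437), and at the second start of Hoxd4 nearby they were 2 and 23. Hoxa3, which helps to form the throat and neck, held 34 and 24 tags, a ratio of 1.98 (1.14 to 3.49), just short of 2-fold. Hoxc4 was on the other side, with 5 and 15 tags in NIH3T3 (0.466, 0.133 to 1.35) and 45 and 20 in the embryo. At the second annotated start of Hoxc4 the NIH3T3 tags were 10 and 13 (1.08) and the embryo tags 39 and 31 (1.05). Within 2500 bp Hoxa2 was at 3.159, and Hoxd3 (1.626) and Hoxc4 (0.8395) were no longer past a limit. The 11 genes of groups 1 to 4 had a median of 1.399.

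In the middle groups, Hoxa5 held 34 and 16 tags, a ratio of 2.97 (1.60 to 5.77), against 64 and 59 in the embryo. Its window contained the called peak in the Hoxa5 exon, with 17 and 5 of these NIH3T3 tags. Hoxc6, a thoracic gene, held 32 and 18 tags (2.49, 1.36 to 4.71), against 41 and 26 in the embryo. Hoxa6 held 28 and 18 tags (2.18, 1.16 to 4.18) and Hoxa7 held 22 and 15 (2.05, 1.02 to 4.25). These 4 were the genes of groups 5 to 8 at or above 2-fold, and the median of the 10 tested was 0.951. Within 2500 bp Hoxa5 (2.025) and Hoxa6 (2.307) stayed past 2-fold, whereas Hoxc6 (1.973) and Hoxa7 (1.526) did not. Hoxa4, in the midst of the high HoxA starts, was at 0.979 with 14 and 20 tags. Its interval (0.458 to 2.04) overlapped those of Hoxa3, Hoxa5, Hoxa6 and Hoxa7.

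In groups 9 to 13, whose genes act from the thoracic column to the tail and in the limb, 1 of 16 starts had an NIH3T3 ratio above 1, Hoxb9 with 10 and 9 tags, and the median was 0.616. The lowest were Hoxa11, with 1 and 14 tags (0.0999, 0.00236 to 0.657), and Hoxc12, with 2 and 23 (0.122, 0.0139 to 0.492). Both values depended on the window, and within 2500 bp the ratio was 0.4897 at Hoxa11 and 0.6784, no longer past 0.5-fold, at Hoxc12. Hoxd13, required for the digits, held 4 and 15 tags (0.373), Hoxc13, required for hair and nails, 3 and 11 (0.382), Hoxd12 and Hoxa13 4 and 14 each (0.400). The intervals of these last 4 reached above 1, and within 2500 bp their ratios were 0.6691 to 0.7719. In the embryo the same 16 starts had a median of 0.924, with 7 above 1. The GC content of the starts had a median of 57.4% in groups 9 to 13, 54.2% in groups 5 to 8 and 51.5% in groups 1 to 4, so base composition moved with the paralog groups, and its part in the result was not tested beyond the strata above.

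**Figure D5:**
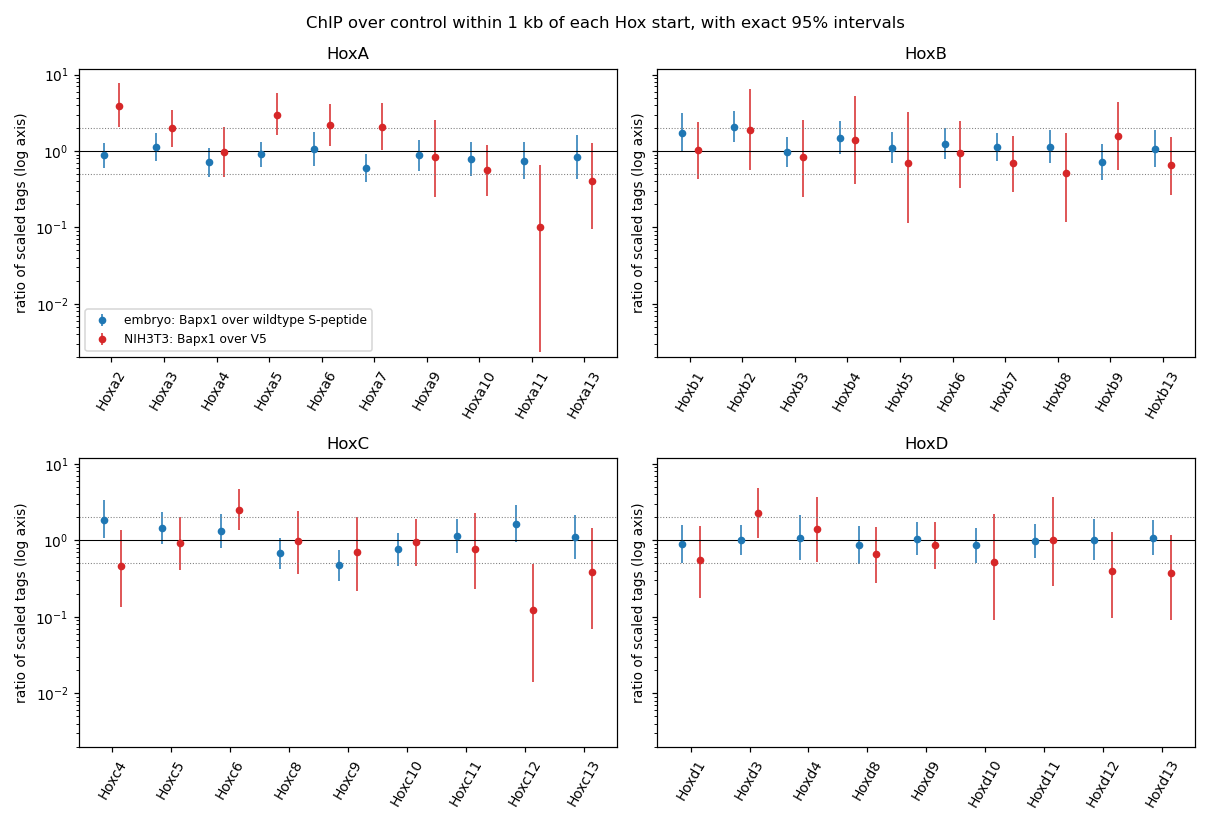
Ratio of scaled ChIP to control tags within 1 kb of each Hox start, on a log axis with exact 95% intervals, for the embryo (blue) and NIH3T3 (red); dotted lines mark 0.5 and 2. Hoxa2, at 3.90, is the highest NIH3T3 point and Hoxa11, at 0.0999, the lowest, and Hoxb5 was under the minimum of 10 tags in NIH3T3.

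Set against each other, the NIH3T3 ratio was at least 2-fold the embryo ratio at 6 of 37 Hox genes, beside 23.9% of all genes, and at most 0.5-fold at 8, beside 12.4%. The median over the 37 genes was 0.829, beside 1.28 over all genes. The interval of this quotient lay above 1 at 3 Hox genes, beside 12.6% of all genes, and below 1 at 2, beside 2.14%. The 6 were Hoxa2 at 4.46 (2.10 to 9.77), Hoxa7 at 3.41 (1.47 to 8.02), Hoxa5 at 3.29 (1.57 to 7.06), Hoxd3 at 2.24 (0.926 to 5.55), Hoxb9 at 2.13 (0.668 to 6.87) and Hoxa6 at 2.05 (0.891 to 4.75). The 8 were Hoxc12 at 0.0748 (0.00812 to 0.362), Hoxc4 at 0.249 (0.0635 to 0.865), Hoxa11 at 0.133, Hoxc13 at 0.344, Hoxd13 at 0.346, Hoxd12 at 0.391, Hoxb8 at 0.451 and Hoxa13 at 0.480, and the intervals of the last 6 included 1. Within 2500 bp the quotient was at least 2 at 2 Hox genes, Hoxa2 (3.068) and Hoxa5 (2.172), beside 16.4% of all genes, and at most 0.5 at 0, beside 5.85%. There Hoxa7 stood at 1.764, Hoxc4 at 0.7233 and Hoxc12 at 0.6029. The comparison is between 4 libraries that also differ in antibody, tag and cell source, and these cannot be told apart.

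Other features of the clusters were few. Of 6 microRNA genes, 0 reached 2-fold in NIH3T3 or in the embryo, beside 24.6% and 2.15% of all coding genes, and 2 were at most 0.5-fold in NIH3T3, beside 10.8%, Mir196a-2 with 5 and 18 tags (0.389, 0.113 to 1.09) and Mir10b. The latter, the microRNA gene beside Hoxd4, held 1 and 20 tags in NIH3T3 (0.0700, 0.00169 to 0.437) and 27 and 25 in the embryo, in a window that overlaps the second starts of Hoxd3 and Hoxd4. Of 11 other coding genes 3, or 27.3%, reached 2-fold in NIH3T3, near the 24.6% of all genes: Calcoco2 with 12 and 4 tags, Mtx2 with 17 and 9, and 5730596B20Rik, inside HoxA and under the NIH3T3 peak given above, with 33 and 18. At most 0.5-fold were 2, or 18.2%, Evx1 and Gm14396 (3 and 11 tags), beside 10.8% of all genes. Evx1 and Evx2, which border HoxA and HoxD, had NIH3T3 ratios of 0.466 (4 and 12 tags) and 0.777 (5 and 9), and embryo ratios of 0.873 and 0.666.

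Among 33 genes that act on or with Hox genes, 9 reached 2-fold in NIH3T3 and 2, Cbx7 and Cyp26a1, were at most 0.5-fold, with a median of 1.399. These are 27.3% and 6.06%, beside 24.6% and 10.8% of all genes and a median of 1.29. In the embryo 0 and 1 were past these limits, beside 2.15% and 1.82% of all genes. Meis2 (31 and 8 tags, 5.42, 2.44 to 13.7) and Meis1 (24 and 7, 4.797, 2.01 to 13.2) encode homeodomain proteins that bind DNA together with Hox proteins. Suz12 (33 and 10 tags, 4.62, 2.22 to 10.5) and Cbx8 (23 and 7, 4.60, 1.91 to 12.7) encode subunits of the Polycomb complexes that keep Hox genes silent, as do Cbx7 (2 and 10 tags, 0.280), Phc2 (11 and 21, 0.733) and Ring1 (17 and 25, 0.951), so the subunits did not share a direction. Cdx1, an activator of Hox genes, was the gene at most 0.5-fold in the embryo, with 12 and 20 tags. The 80 ribosomal protein genes, counted the same way, had a median of 1.70 in NIH3T3 with 29 at or above 2-fold, and 1.08 in the embryo, so the Hox median stood below both lists in NIH3T3.

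Sox9 and IgG tags lie displaced from mm9, and the displacement was measured before any Sox9 peak was set beside a Hox gene. Matching the IgG tags with the wildtype S-peptide tags in 500-kb windows gave a clear displacement at 1 of 4 clusters, HoxC, at -2.4 kb, and no Sox9 peak lay there or in its flanks. When all embryo tags of each pair were pooled in 1000-kb windows, a choice made after the data had been seen, all 4 were clear, at -20.4 kb for HoxA, -45.2 kb for HoxB, -2.4 kb for HoxC and -37.2 kb for HoxD. Then 2 of the 3722 Sox9 peaks belonged to the clusters and flanks, which span 1.29 Mb. The whole Sox9 list had 1.4 peaks per Mb, so a count of 2 cannot be told from the rate of the list. The HoxA peak, at chr6:52113666-52114058 as deposited, with 21 Sox9 tags and 5 IgG tags and a ratio of 4.38 (1.61 to 14.9), lay 7.53 kb downstream of the start of Hoxa4 and 0.369 kb from an internal start of Hoxa3, and its nearest NIH3T3 Bapx1 peak was 3.16 kb away. The HoxD peak, at chr2:74422250-74422530 as deposited, with 16 and 1 tags, lay 46.8 kb upstream of Hoxd13. The authors' false discovery rate was 46.3% and 23.6%. Over the displaced clusters the Sox9 to IgG ratio was 1.12 (1.01 to 1.24) for HoxA, 0.887 (0.816 to 0.963) for HoxB, 0.932 (0.841 to 1.03) for HoxC and 1.01 (0.912 to 1.13) for HoxD. Their flanks stood at 0.963, 0.859, 0.927 and 1.04 in the same order, so the HoxB flanks were as low as the cluster.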

How the data were processed

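ChIP libraries were sequenced on Illumina instruments, and the authors mapped reads to mm9, kept unique matches with few mismatches and called peaks with MACS at a p cutoff of 1e-05 against each control. The deposited tag positions were read as counts. The authors' peak lists also hold tag counts, a score (10 times -log10 of p), a fold enrichment and a false discovery rate in percent, which were not recomputed. Here distinct tags were counted within 1000 bp of the most 5′ coding start of each gene (GENCODE, NCBIM37), in bins and over clusters, and each ChIP count was divided by its control count after scaling to library totals. Pairs with under 10 tags were not tested. Ratios of at least 2 or at most 0.5 were called, with no p-value. Displacement of the Sox9 and IgG tags was found by cross-correlation in 50-bp bins, with a shift called clear at 1.5 times the next best. The motif letters are those the study gives for Bapx1. The members and lists were chosen with earlier results of these data known. Genes with a value past a limit, and the highest and lowest 5 per pair, were named. Counting was tested on tag counts simulated with known 4-fold changes. In NIH3T3 99% of rises and 79% of drops were called, and in the embryo 100% and 97%. Among unchanged starts, counting error alone called 4.62% at least 2-fold and 6.2% at most 0.5-fold in NIH3T3. In the embryo these shares were 1.63% and 1.32%. Python 3.11.15, numpy 2.4.6, scipy 1.17.1, pandas 2.3.3 and pyfaidx 0.9.0.4 were used.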

Additional observations from a re-analysis of the deposited data

Results flagged for a closer look

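At 5 of the 37 Hox starts tested, the interval of the NIH3T3 ratio divided by the embryo ratio lay to 1 side of 1, above it at 3 and below it at 2, beside 12.6% and 2.14% of all genes. The quotient was 4.456 at Hoxa2, 3.29 at Hoxa5 and 3.411 at Hoxa7, all in HoxA, and 0.2488 at Hoxc4 and 0.07481 at Hoxc12, both in HoxC. Within 2500 bp of the start, in place of 1 kb, it was 3.068 at Hoxa2, 2.172 at Hoxa5, 1.764 at Hoxa7, 0.7233 at Hoxc4 and 0.6029 at Hoxc12, so the last 3 were no longer past 2-fold or 0.5-fold. The median quotient over all 20068 genes was 1.275, and each value rests on 4 single libraries. At Hoxc12 the embryo tags were 41 and 21 and the NIH3T3 tags 2 and 23, and at Hoxa2 they were 63 and 60 and then 39 and 14. The NIH3T3 tags at Hoxa2 and Hoxa5 include those of called peaks. The quotient of Hoxa7 joins a low embryo ratio, 0.602, to an NIH3T3 ratio of 2.05. The flags of Hoxc4 and Hoxa7 rest on the most 5′ annotated start. At the second start of Hoxc4 the ratios were 1.048 in the embryo (39 and 31 tags) and 1.076 in NIH3T3 (10 and 13 tags). At the other starts of Hoxa7 the embryo ratios were 0.833, 1.285 and 1.015, and the NIH3T3 ratios 1.586, 2.798 and 1.83.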

How the results depend on the processing

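No paired analysis was possible because each condition has 1 library. Counts that moved were as follows, and the cause was not tested. Embryo starts at or above 2-fold numbered 2 within 500 bp and 0 within 2500 bp, with tag ends moved by 100 bp and in GC strata (reported: 1), and those at or below 0.5-fold 2, 0 and 0 at the first 3 settings (reported: 1). NIH3T3 starts at or above 2-fold numbered 3 within 2500 bp and 2 in GC strata (reported: 6), and those at or below 0.5-fold 4 within 500 bp, 1 within 2500 bp, 14 in GC strata and 11 at the start with the most control tags (reported: 7). The quotient of the pairs was at least 2 at 2 genes within 2500 bp and 3 in GC strata (reported: 6), and at most 0.5 at 0 and 15 (reported: 8). The NIH3T3 ratio of Hoxd3 turned to 0.06996 at its start with the most control tags. Within 500 bp only 21 Hox genes could be tested in NIH3T3, with a median of 1.799, beside 1.399 over all genes.

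Embryo peaks in clusters and flanks numbered 0 at a p of at most 1e-10, at a false discovery rate of at most 5%, with 50-kb flanks and with none (reported: 3). The whole embryo list had 0 peaks at that false discovery rate, so this count could only be 0. At that p it had 661, a rate at which 0.32 would be counted here, so a count of 0 cannot be told from it. NIH3T3 peaks numbered 2 at a p of at most 1e-10 and 5 with no flank (reported: 10). At the rate of the list 2.44 and 4.24 would be counted at these settings. Hox genes near a peak numbered 6 within 100 kb in the embryo (reported: 0), and in NIH3T3 2 within 1 kb, 19 within 100 kb and 2 at a p of at most 1e-10 (reported: 5). Against the whole chromosome, the clusters were denser by 1.653 and 1.679 in the embryo ChIP and control, and by 1.317 and 1.258 in those of NIH3T3 (reported: 1.442, 1.448, 1.187 and 1.109). Sox9 peaks at the clusters numbered 1 against the tagged Bapx1 library, with HoxA and HoxC placed (reported: 0, with HoxC alone placed). They numbered 1 by Sox9 tags, with HoxA alone placed, and 2 with pooled tags, with all 4 placed. The pooled setting was chosen after seeing the data. HoxA and HoxC, placed at several settings, kept the same count at each. Windows of 200 kb gave no clear displacement and no value. The NIH3T3 ratios of Hoxa2, Hoxa5 and Hoxa11 stayed past their limit in every alternative that gave a value, although within 2500 bp Hoxa11 stood at 0.4897 and its quotient at 0.5538, while Hoxc12 rose to 0.6784 with a quotient of 0.6029, and the HoxA stretch of groups 1 to 8 stood at 1.67 outside peaks and 1.841 with all tags. The NIH3T3 counts at Hoxa2 and Hoxa5 include the tags of called peaks. Depth limits the NIH3T3 starts, where Hox genes tested held 1 to 39 ChIP tags.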
